A study of Homo sapiens with 3 samples.

Results

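The HOX genes are the protein-coding genes of the HOXA, HOXB, HOXC and HOXD clusters. They were taken from the GENCODE annotation by symbol, as HOX followed by a cluster letter and a number, which gave 39 of 20163 protein-coding genes. The HOXA cluster held 11 of them, HOXB 10, HOXC 9 and HOXD 9. Histone marks over these genes were read from ChIP-seq of H2087, an established cell line from a human lung adenocarcinoma. The cells were untreated and were grown in RPMI medium with fetal bovine serum. Of the 3 libraries described, 1 was made with the Abcam antibody ab8580 against histone H3 trimethylated at lysine 4 (H3K4me3), 1 with ab4729 against histone H3 acetylated at lysine 27 (H3K27ac), and 1 was input chromatin without antibody, which was not analysed here. Each mark thus had 1 library of 1 cell line. No value below has a replicate, no test between the marks was possible, and the intervals given are exact Clopper-Pearson 95% intervals that cover counting error only.

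HOX genes encode homeodomain transcription factors that give cells their position along the head-to-tail axis of the embryo, and adult tissues keep a part of that pattern. Within each cluster the genes lie in the order of their numbered paralogue groups, low numbers being used toward the head and high numbers toward the tail. H3K4me3 is found mostly at the starts of active or poised genes, and H3K27ac at active starts and enhancers. Polycomb complexes keep unused HOX genes silent, and MLL complexes deposit H3K4 methylation at used ones. Long noncoding RNAs (lncRNAs) such as HOTAIR and HOTAIRM1, and microRNAs such as miR-196, are transcribed from within the clusters.

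The lists held 18585 H3K4me3 and 24096 H3K27ac peaks. The strength of a peak is given as the −log10 q that came with the list, a measure of how unlikely the pile of reads was under the background model of the peak caller. It had a median of 2.97 for H3K4me3 and 2.65 for H3K27ac, and is comparable only within a list. The read depth of the libraries is unknown, so a place without a peak cannot be told apart from a place with too few reads. Copy number was not measured. The labelled cell type was checked with marker genes. Of 7 epithelial genes, 6 had H3K4me3 and 6 H3K27ac within 1 kb of the start, with KRT8 at 18.9 and 14.8. Of 8 genes of lung epithelium, NKX2-1 had both marks at 1.58 and 2.82, SFTPD had H3K4me3 at 2.49, and the other 6, including SFTPB, SFTPC and NAPSA, had neither. No start was marked among 4 squamous, 4 neuroendocrine, 3 leukocyte and 3 endothelial or fibroblast genes. PECAM1, a 4th gene of the last list, was not found by its symbol. Of all protein-coding starts, 38.2% had H3K4me3, 23.6% H3K27ac and 56.8% neither. The lung list lay below these shares, at 25% and 12.5%. Lists of 3 or 4 unmarked genes say little beside the 56.8%.

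The DNA under the peaks that carry the results is shown first, because the strongest HOX peaks differed in base composition as well as in place. Each line is reference sequence of hg19 from under a peak, at most 300 bases from its middle and free of annotated UTR, read 5′ to 3′ on the strand of the HOX genes, with CpG dinucleotides in capitals.
HOXA7-HOXA9 intergenic H3K4me3, chr7:27200218-27200517, minus strand: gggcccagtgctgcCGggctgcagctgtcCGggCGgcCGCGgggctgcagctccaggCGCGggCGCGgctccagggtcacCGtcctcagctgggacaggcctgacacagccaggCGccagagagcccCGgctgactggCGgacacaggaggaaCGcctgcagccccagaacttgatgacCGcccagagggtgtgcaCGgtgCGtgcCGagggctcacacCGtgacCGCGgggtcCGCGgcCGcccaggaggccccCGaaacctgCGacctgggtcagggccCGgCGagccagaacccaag
HOTAIRM1 H3K27ac, chr7:27136005-27136304, minus strand: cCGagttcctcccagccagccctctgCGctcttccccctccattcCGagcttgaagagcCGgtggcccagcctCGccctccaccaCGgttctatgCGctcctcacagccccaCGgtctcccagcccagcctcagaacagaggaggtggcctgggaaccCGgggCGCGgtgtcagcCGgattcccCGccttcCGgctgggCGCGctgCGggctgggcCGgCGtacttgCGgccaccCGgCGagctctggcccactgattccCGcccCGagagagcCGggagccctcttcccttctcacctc
HOXB13 H3K4me3, chr17:46805312-46805556, minus strand: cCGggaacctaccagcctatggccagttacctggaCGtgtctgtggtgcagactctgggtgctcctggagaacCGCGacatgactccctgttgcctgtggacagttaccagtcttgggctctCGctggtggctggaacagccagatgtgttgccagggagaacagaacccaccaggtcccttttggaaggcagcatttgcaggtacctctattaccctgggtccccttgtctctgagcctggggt
HOXB6 H3K27ac, chr17:46675022-46675321, minus strand: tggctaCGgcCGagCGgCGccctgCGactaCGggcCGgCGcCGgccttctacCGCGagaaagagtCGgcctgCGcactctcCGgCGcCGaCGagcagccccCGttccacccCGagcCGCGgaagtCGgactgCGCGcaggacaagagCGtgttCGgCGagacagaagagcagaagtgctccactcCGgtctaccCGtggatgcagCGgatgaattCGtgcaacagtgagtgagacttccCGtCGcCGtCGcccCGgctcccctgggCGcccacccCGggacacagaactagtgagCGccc
HOXC9 H3K27ac, chr12:54394661-54394960, plus strand: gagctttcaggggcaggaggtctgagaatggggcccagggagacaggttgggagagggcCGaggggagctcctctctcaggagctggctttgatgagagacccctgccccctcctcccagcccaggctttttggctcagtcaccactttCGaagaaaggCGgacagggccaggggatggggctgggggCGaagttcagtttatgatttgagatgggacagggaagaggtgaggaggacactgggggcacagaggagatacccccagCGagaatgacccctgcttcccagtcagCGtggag
HOXD1 upstream H3K4me3, chr2:177053023-177053255, plus strand: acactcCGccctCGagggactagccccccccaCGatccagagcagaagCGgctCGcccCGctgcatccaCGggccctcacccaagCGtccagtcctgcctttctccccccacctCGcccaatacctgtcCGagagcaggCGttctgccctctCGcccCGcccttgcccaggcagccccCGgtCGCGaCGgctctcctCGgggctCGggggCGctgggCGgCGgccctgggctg
HOXD13-HOXD12 intergenic H3K4me3, chr2:176962139-176962405, plus strand: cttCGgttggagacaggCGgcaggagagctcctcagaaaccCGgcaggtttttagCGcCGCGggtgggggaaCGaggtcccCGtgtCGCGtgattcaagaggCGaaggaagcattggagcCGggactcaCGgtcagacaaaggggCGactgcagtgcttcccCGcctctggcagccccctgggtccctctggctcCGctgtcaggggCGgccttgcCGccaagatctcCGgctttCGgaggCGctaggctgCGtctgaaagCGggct
The first 5 of these are the strongest H3K4me3 peaks of the HOXA and HOXB bodies and the strongest H3K27ac peaks of the HOXA, HOXB and HOXC bodies, where the body runs from the first to the last base of a cluster's HOX genes. The ratio of observed to expected CpG was 0.24 in the HOXB13 stretch, which holds 5 CpGs in 245 bases, and 0.224 in the HOXC9 stretch, which holds 6 in 300. In the other stretches it was 0.682 to 1.1, highest over HOXB6 with 39 CpGs in 300 bases. Strong peaks of the clusters thus lay on CpG-rich and on CpG-poor DNA, for each mark.

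Gene starts were scored next. Taking as start the outermost 5′ base that GENCODE gives a gene, 9 of the 39 HOX genes had an H3K4me3 peak within 1 kb (23.1%, 11.1 to 39.3), against 38.2% of all protein-coding genes. H3K27ac lay within 1 kb of 9 HOX starts as well (23.1%), against 23.6% of all genes. Both marks were found at 3 of 39 starts (7.69%, 1.62 to 20.9), HOXB13 and HOXC9 among them, against 18.6%. At this distance the background shares lay inside the HOX intervals for H3K4me3, for H3K27ac and for both marks together. Within 500 bp, H3K4me3 lay at 6 HOX starts (15.4%, 5.86 to 30.5), against 30.8% of all genes, a value just above the interval. Neither mark was found within 1 kb of 24 HOX starts (61.5%), against 56.8% of all genes.

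The marks were also counted in combination. H3K27ac without H3K4me3 was found at 6 HOX starts (15.4%, 5.86 to 30.5), against 4.99% of all protein-coding starts, a value below the interval. These were HOXA7, HOXA9, HOXA10, HOXA11, HOXB5 and HOXC10. Expressed as a share of the starts that carried H3K27ac, 66.7% in the clusters (29.9 to 92.5) and 21.2% of all genes lacked H3K4me3. H3K4me3 without H3K27ac was found at HOXB9, HOXC4, HOXC5, HOXC11, HOXC13 and HOXD1, 6 starts (15.4%) against 19.6% of all genes. Neighbouring starts are not independent of each other, as 4 of the 6 starts with H3K27ac alone lie in HOXA, so the intervals are narrower than the data warrant. With canonical starts, HOXA7 and HOXA9 left these 6 and HOXA6 joined them. With peak midpoints, canonical starts or no peaks under 200 bp the count was 5 (12.8%, 4.3 to 27.4), an interval that includes the 4.86% to 5.32% of all genes. It fell to 3, or 7.69%, when the distance was cut to 500 bp (5.13% of all genes) or when peaks under the median −log10 q of each list were left out (4.9%). Homeobox genes outside the clusters were read for comparison. Of 62 genes of families such as LHX, NKX, DLX and IRX, 20 had H3K4me3 (32.3%), 7 had H3K27ac (11.3%), and each of these 7 had both, so that 0 had H3K27ac alone (0 to 5.78%). Of 9 HOX-like and ParaHox genes, 1 had H3K27ac alone (11.1%), MNX1. Among the 62 genes, NKX2-8 reached 9 and DLX2 5.47 for H3K4me3.

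**Figure D1:**
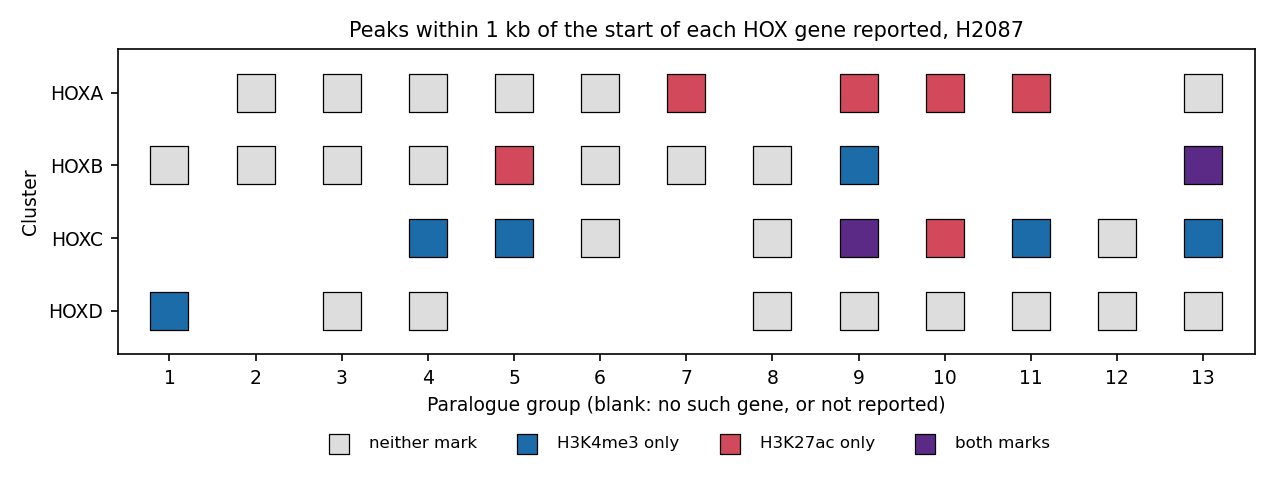
Each square is 1 of the HOX genes reported here, by paralogue group (horizontal axis) and cluster (vertical axis), coloured by the peaks within 1 kb of its outer start in 1 library per mark. The 4 starts with H3K27ac alone in the HOXA row, the 5 with H3K4me3 in the HOXC row and the 8 unmarked starts of the HOXD row stand out.

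By cluster, H3K4me3 was found at 1 of 11 starts in HOXA (9.09%, 0.23 to 41.3), 2 of 10 in HOXB (20%, 2.52 to 55.6), 5 of 9 in HOXC (55.6%, 21.2 to 86.3) and 1 of 9 in HOXD (11.1%, 0.281 to 48.2). H3K27ac was found at 5 of 11 in HOXA (45.5%, 16.7 to 76.6), 2 of 10 in HOXB, 2 of 9 in HOXC and 0 of 9 in HOXD (0 to 33.6%). The intervals of all clusters overlap for each mark. Each also contains the share of all protein-coding starts, 38.2% for H3K4me3 and 23.6% for H3K27ac. By position along the clusters, groups 1 to 3 held H3K4me3 at 2 of 8 starts and H3K27ac at 1. Groups 4 to 8 held each mark at 2 of 15 starts and both at 0 (0 to 21.8%). Groups 9 to 13 held H3K4me3 at 5 of 16 starts (31.2%, 11 to 58.7) and H3K27ac at 6 (37.5%, 15.2 to 64.6), and 7 were unmarked (43.8%, 19.8 to 70.1). Unmarked starts made up 11 of 15 in groups 4 to 8 (73.3%, 44.9 to 92.2) and 6 of 8 in groups 1 to 3 (75%, 34.9 to 96.8). These intervals overlap, and each contains the 56.8% of all genes. For each mark the intervals of these groups also contain the share of all genes. The interval for both marks in groups 4 to 8 contains their 18.6%.

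**Figure D2:**
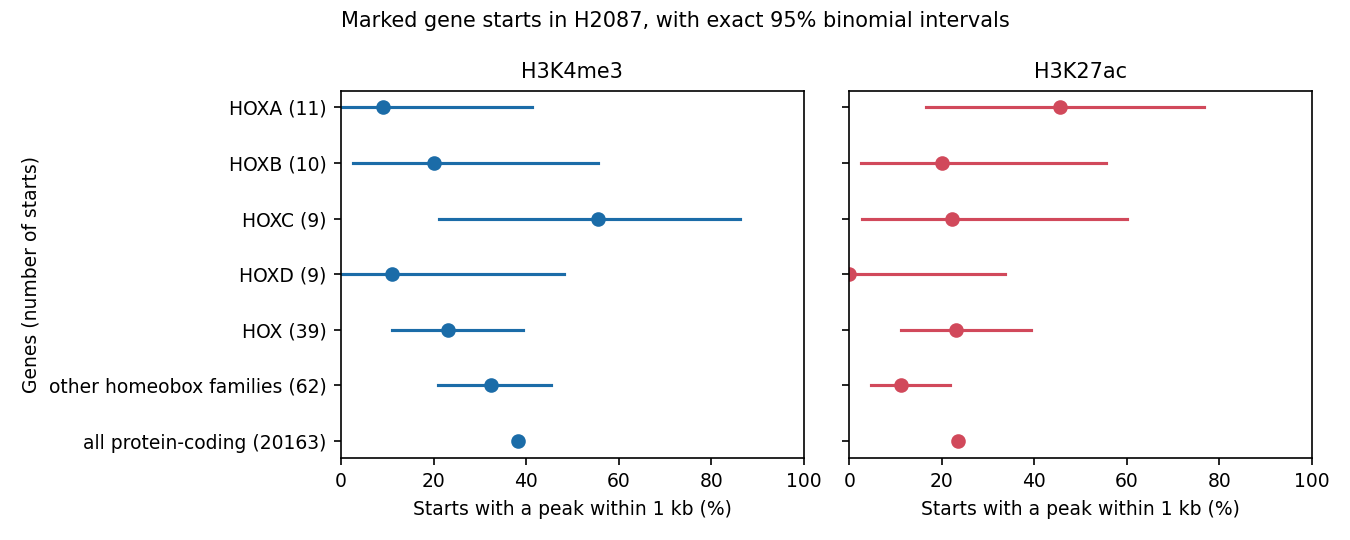
Share of gene starts (%) with a peak within 1 kb, for H3K4me3 (left) and H3K27ac (right), with the number of starts in brackets, points for the share and lines for exact 95% binomial intervals. The HOX point lies at 23.1% in both panels, against 38.2% and 23.6% of all protein-coding starts, and the 4 clusters have wide, overlapping intervals.

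Base composition was compared because H3K4me3 usually lies on CpG-rich DNA. In the 1 kb around the start, 26 of 39 HOX genes (66.7%) were CpG-rich, which means at least 50% G and C and a CpG ratio of at least 0.6, against 57.5% of all genes. Of these 26, 7 carried H3K4me3 (26.9%, 11.6 to 47.8), against 57.3% of the CpG-rich starts of all genes, a value above the interval. Neighbouring starts are not independent, and 8 of the 26 lie in HOXD, so this interval is narrower than the data warrant. Other homeobox families gave 18 of 53 (34%, 21.5 to 48.3), an interval that also lies below 57.3%. The low share was thus not particular to HOX. The median CpG ratio was 0.699 at HOX starts with H3K4me3 and 0.683 at those without, and 77.8% and 63.3% of them were CpG-rich. HOXD, with 8 unmarked starts, had the highest median of the clusters, 0.817, and 8 of its 9 starts were CpG-rich. HOXA9 had the lowest ratio of all HOX starts, 0.274, and its start was covered by an H3K27ac peak.

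Over the clusters as a whole, with 50 kb of flank on each side, 36 H3K4me3 and 31 H3K27ac peaks were found. The HOXA region held 8 and 15, HOXB 15 and 8, HOXC 10 and 8, and HOXD 3 and 0. H3K27ac made up 46.3% of these peaks (34 to 58.9), against 56.5% of the peaks of both lists. H3K4me3 covered 2.17% of the HOXA body (107 kb), 2.08% of HOXB (200 kb), 3.91% of HOXC (117 kb) and 0.836% of HOXD (98.2 kb), all above the 0.229% of the chromosomes under H3K4me3 peaks. H3K27ac covered 5.38% of HOXA, 0.857% of HOXB, 2.31% of HOXC and 0% of HOXD, against 0.269%. The shares of the chromosomes take in stretches without genes. Regions as dense in gene starts as the clusters were not compared, so these shares do not show enrichment particular to HOX. The covered length under H3K27ac was 2.48 times that under H3K4me3 in HOXA, 0.412 times in HOXB and 0.592 times in HOXC, against 1.18 times over the whole lists. By share of the body covered, HOXA was thus highest for H3K27ac and HOXC for H3K4me3, whereas by number of H3K4me3 peaks HOXB was highest. HOXB also has the longest body. Per 10 kb of body, HOXC held 0.853 H3K4me3 peaks and HOXB 0.649.

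**Figure D3:**
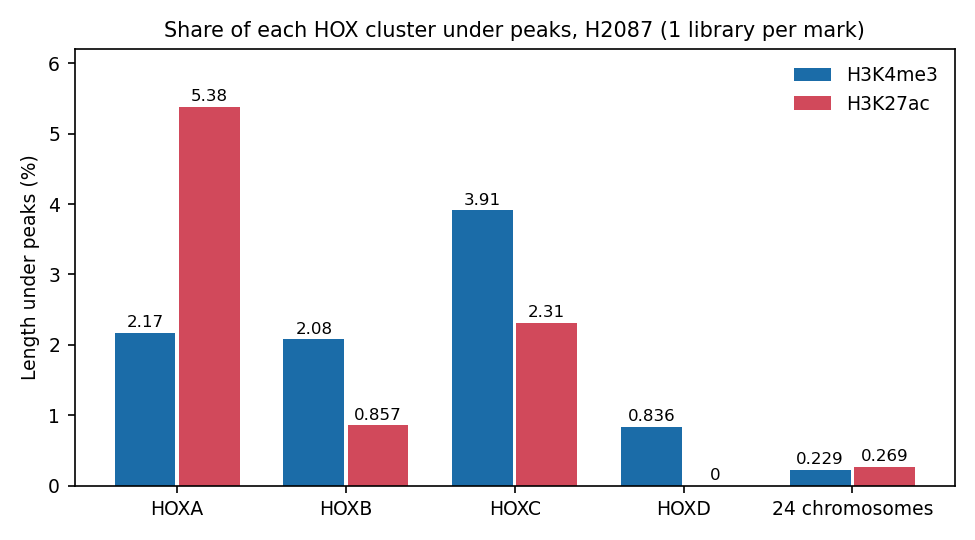
Length under peaks as a percentage of each cluster body and of the 24 chromosomes, for H3K4me3 (blue) and H3K27ac (red). Bars are single values of 1 library per mark, from 0% for H3K27ac in HOXD to 5.38% for H3K27ac in HOXA.

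The peaks of the clusters had a median width of 304 bp for H3K4me3 and 333 bp for H3K27ac, against 305 and 284 bp in the whole lists. The widest measured 872 and 815 bp. None reached 1 kb, a width that 2.25% of the H3K4me3 and 1.28% of the H3K27ac list reached. Their median −log10 q was 3.09 for H3K4me3 and 3.04 for H3K27ac. Sharing at least 1 bp with the other mark was seen for 12 of 36 H3K4me3 peaks (33.3%, 18.6 to 51), against 31.1% of the list, and for 12 of 31 H3K27ac peaks (38.7%, 21.8 to 57.8), against 24% of the list. The start of some HOX transcript lay within 1 kb of 22 of the 36 H3K4me3 peaks and 19 of the 31 H3K27ac peaks, with median distances of 694 and 653 bp. Of the 36 H3K4me3 peaks, 12 overlapped coding sequence of a HOX gene, 21 touched an annotated lncRNA and 5 lay outside any gene, while for H3K27ac these numbers were 5, 16 and 6 of 31. Such placements were not counted over the whole lists, so nothing particular to the clusters can be read from them. An outer HOX start was covered outright in 5 cases, HOXC9 and HOXC13 by H3K4me3 and HOXA7, HOXA9 and HOXA10 by H3K27ac. Of the canonical starts, 1 was covered by H3K4me3, that of HOXC13, and 0 by H3K27ac.

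**Figure D4:**
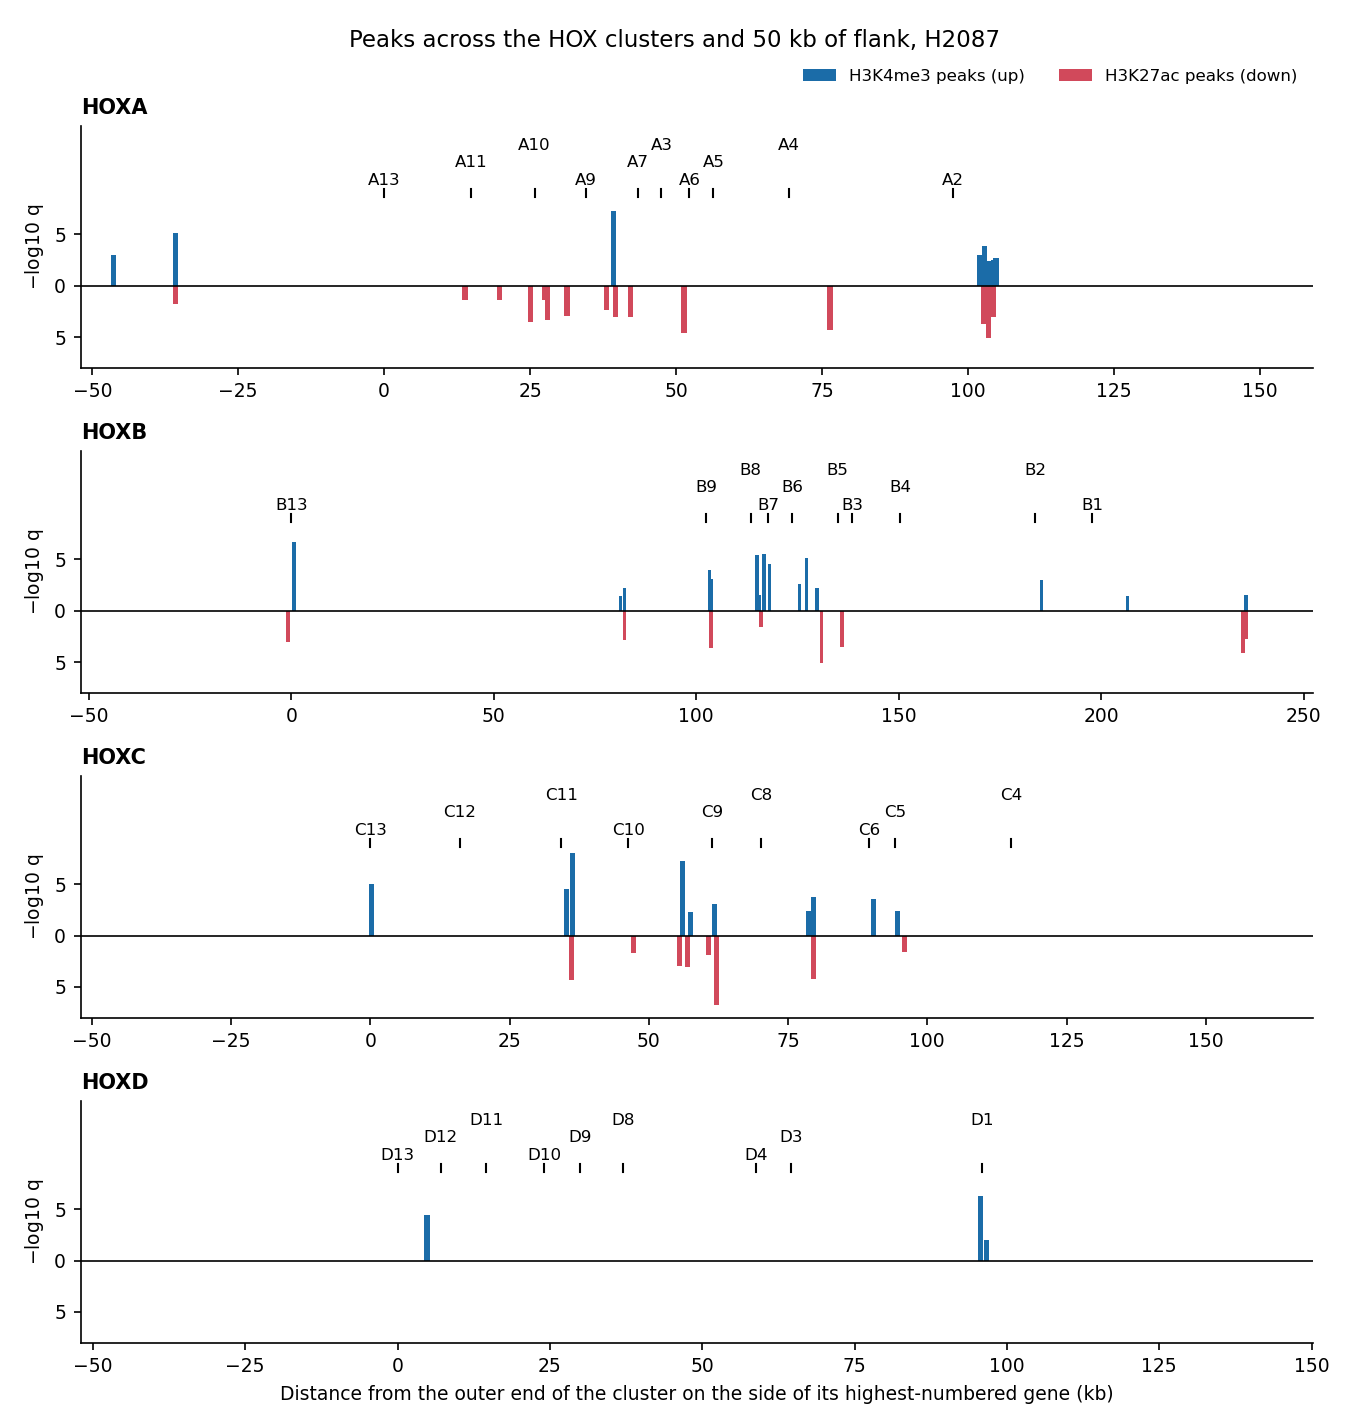
Peaks of H3K4me3 (blue, upward) and H3K27ac (red, downward) as bars of their −log10 q against distance in kb from the outer end of each cluster on the side of its highest-numbered gene, with ticks for the canonical transcript starts of the genes reported here. Peak widths are drawn at a minimum of 0.9 kb. H3K27ac is spread over the middle of HOXA, H3K4me3 is grouped over HOXB7 and HOXB8 (B7, B8), and HOXD holds 3 H3K4me3 peaks.

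In HOXA the marks overlapped at HOTAIRM1, a lncRNA of the low-numbered end of the cluster. The strongest H3K27ac peak of the cluster, at 5.08, lay over its exon 1 (chr7:27135894-27136415), and its sequence is among those above. Past HOTAIRM1 the marks parted. The longest stretch of the body without H3K4me3 measured 62.3 kb and held HOXA2, HOXA3, HOXA4, HOXA5, HOXA6 and HOXA7. From HOXA2 to the end of HOXA13, H3K4me3 had 1 peak and H3K27ac had 11, with −log10 q of 1.36 to 4.58, of which 1 overlapped H3K4me3. The H3K4me3 peak was the strongest of the cluster, at 7.3, above 95.2% of its list, and lay between HOXA7 and HOXA9 outside any annotated gene (chr7:27200129-27200606, 478 bp). An H3K27ac peak of 3.02 overlapped it (chr7:27199700-27200357).

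The HOXA members were distinguished by their H3K27ac peaks. HOXA2 was 5.23 kb from the nearest one, HOXA3 3.58 kb, HOXA4 6.73 kb and HOXA5 4.74 kb, so that these hindbrain and neck members were unmarked at their starts. HOXA6 had its outer start 1.59 kb away, but the start of its canonical transcript lay 647 bp from the same peak of 4.58 (chr7:27188040-27188627), which is intronic in HOXA3 and HOXA6. HOXA7 was covered by a peak of 198 bp at 3.04, HOXA9 by the widest H3K27ac peak of the clusters (chr7:27214249-27215063, 815 bp, 3.55), and HOXA10 by a weak peak of 250 bp at 1.39. The canonical start of HOXA7 lay 1.08 kb from its 198-bp peak, just outside the limit for a marked start. The canonical start of HOXA9, a gene known for its part in leukaemia, lay 9643 bp downstream of the outer start and 3.07 kb from any H3K27ac peak, whereas that of HOXA10 lay 310 bp from the 815-bp peak. HOXA11 was 845 bp from a peak at 1.36, near the limit of the list, where 0.876% of H3K27ac peaks were weaker. HOXA13, the limb and hindgut gene at the end of the cluster, had no H3K27ac within 13.7 kb and no H3K4me3 within 35.5 kb. HOTTIP, the lncRNA beside it, was 12.2 kb from H3K27ac and 37 kb from H3K4me3. In the flank beyond HOXA13, peaks of H3K4me3 at 5.12 and H3K27ac at 1.79 overlapped at chr7:27275231-27275699, outside any gene.

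In HOXB the H3K4me3 peaks outnumbered those of H3K27ac. HOXB13, a gene of the hindgut and prostate, stood alone at its end of the cluster, after 80.4 kb without H3K4me3. It had the strongest H3K4me3 peak of HOXB, 6.7, in coding exon 1 and 556 bp inside the gene, and an H3K27ac peak of 3.04 beginning 546 bp upstream, with no overlap between them. PRAC1 and PRAC2, the neighbours of HOXB13, were 5.43 and 4.76 kb from the nearest peak and unmarked. HOXB9 had H3K4me3 785 bp inside at 3.92, and H3K27ac 1.17 kb inside at 3.61, just outside the limit for a marked start. A group of 4 H3K4me3 peaks lay within 3.63 kb over HOXB8 and the canonical transcript of HOXB7, with −log10 q of 1.55 to 5.47. None of them was within 1 kb of the outer starts, the nearest being 1.27 kb inside HOXB8, but the canonical start of HOXB7 lay 141 bp from a peak of 4.54 in its coding exon 1. The outer start of HOXB7 lies 22555 bp away from the canonical one, so this gene is marked at the canonical start and not at the outer one.

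Further along HOXB, H3K4me3 peaks of 2.19, 5.11 and 2.61 lay in the introns that HOXB3 and HOXB6 share, the first 4.84 kb upstream of HOXB5 and the last 1.61 kb inside HOXB6. The strongest H3K27ac peak of the body, at 5.12, lay on coding exon 3 of HOXB6 and held the CpG-dense sequence shown above. HOXB5 had H3K27ac 822 bp inside at 3.51. The outer starts of HOXB3, HOXB4 and HOXB2 were 1.53, 20.3 and 1.55 kb from H3K4me3, and HOXB4 was 14.2 kb from H3K27ac. The canonical start of HOXB3 lay 14671 bp from its outer one. It was 8.37 kb from H3K4me3 and 2.35 kb from H3K27ac. The peak near HOXB2 lay on its coding exon 2, at 2.97, and covered the start of the antisense lncRNA HOXB-AS1. HOXB1, the rhombomere gene at the low-numbered end, was 8.66 kb from H3K4me3 and 37.1 kb from H3K27ac. Near LINC03057 and LINC02086, which run in opposite directions in the long interval between HOXB9 and HOXB13, H3K4me3 at 2.23 overlapped H3K27ac at 2.82.

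HOXC held the strongest peak of the 4 clusters in each list. For H3K4me3 it was a peak of 8.04, above 96.7% of its list and 601 bp wide, over the start of HOTAIR and the second coding exon of HOXC11. The H3K27ac peak overlapping it had a value of 4.28 and covered the HOTAIR start too. HOTAIR is known as a lncRNA that binds Polycomb proteins. HOXC11 itself had a further H3K4me3 peak of 4.5 that began 637 bp inside coding exon 1, and no H3K27ac within 1 kb. HOXC9 had the widest H3K4me3 peak of the clusters (chr12:54388252-54389123, 872 bp, 7.26), which covered its outer start, with H3K27ac of 2.95 ending 310 bp upstream of that start. At its canonical start, 5266 bp downstream, H3K4me3 of 3.08 began 129 bp inside, and the strongest H3K27ac peak of the clusters, 6.71, above 97.2% of its list (chr12:54394586-54395035), followed in the intron. HOXC9 therefore carried both marks at either of its starts.

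HOXC13, a gene of hair and nail, had its start covered by H3K4me3 of 5.01 and was 36 kb from H3K27ac. HOXC12 was 15.7 kb from H3K4me3 and 19.9 kb from H3K27ac. HOXC10 had H3K27ac of 1.65 beginning 848 bp inside and was 9.4 kb from H3K4me3. HOXC8 was 8.04 and 7.73 kb from the marks. HOXC6 was 3.84 and 3.61 kb from them at its outer start, and its canonical start lay 606 bp from an H3K4me3 peak of 3.54. HOXC4 was marked by H3K4me3 of 2.43 at 391 bp from its outer start, but the canonical start lies 36904 bp downstream and was 20.3 kb from H3K4me3. HOXC5 had H3K4me3 of 2.38 at 347 bp, in coding exon 1.

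HOXD was nearly bare. Its 3 H3K4me3 peaks had −log10 q of 6.25, 4.46 and 2.03. The strongest ended 141 bp upstream of HOXD1, over exon 1 of the lncRNA HAGLR, and the weakest lay on coding exon 1 of HOXD1 (chr2:177053920-177054240). The middle one lay between HOXD13 and HOXD12, 4.69 kb past the start of HOXD13 and 2.12 kb before that of HOXD12, outside any gene. HOXD11, HOXD10, HOXD9 and HOXD8 were 6.54, 11.1, 25 and 32 kb from this peak, and HOXD3 and HOXD4 were 38.9 and 36.7 kb from the nearest one. The longest stretch of the body without H3K4me3 measured 90.6 kb. No H3K27ac peak lay in the cluster or within 100 kb of it. The nearest ended 1606 kb before the body and the next began 1019 kb after it, an interval of 2723 kb. Of the 1973 intervals between H3K27ac peaks on chromosome 2, 16 were longer, and the median was 11.3 kb. This interval contained 18 protein-coding starts, the 9 of HOXD and 9 others. H3K4me3 was found at 2 of these 18 starts, against 38.2% of all protein-coding starts. They were 1 of the HOXD starts and 1 of the others, WIPF1, while ATF2, ATP5MC3, MTX2, LNPK and EVX2 were among those without. Starts of 1 stretch are not independent of each other. The absence of H3K27ac thus extended to the genes on both sides of HOXD.

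The lncRNAs of the clusters were marked at shares above those of all lncRNAs. Of 28 lncRNA starts within the bodies, 10 had H3K4me3 (35.7%, 18.6 to 55.9), 9 had H3K27ac (32.1%, 15.9 to 52.4) and 6 had both (21.4%, 8.3 to 41), against 13.3%, 10.2% and 6.62% of the 18702 lncRNAs of the annotation. Those with both were HOTAIRM1, HOTAIR, LINC02086, LINC03057, HOXC-AS1 and HOXC-AS2. Several of these starts share a peak with a HOX gene or with each other, and so are not separate observations. Other lncRNAs that lie among genes as densely were not compared, so these shares show nothing particular to HOX. Among the microRNAs, whose targets include HOX messages, MIR196B in HOXA was 640 bp from H3K27ac of 2.93. MIR196A2 in HOXC was 2.73 kb from H3K4me3 and 2.5 kb from H3K27ac, and MIR196A1 in HOXB was 6.99 and 7.37 kb away. MIR615, inside HOXC5, was 373 bp from H3K4me3 of 2.38 and 558 bp from H3K27ac of 1.62. MIR10B in HOXD was 38 kb from H3K4me3 and 1060 kb from H3K27ac. The mature microRNAs of the MIR196 genes and MIR615, from RefSeq, are shown to compare their seeds, bases 2 to 8, in capitals.
miR-196b-5p: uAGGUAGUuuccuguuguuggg
miR-196a-5p: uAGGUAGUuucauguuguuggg
miR-615-3p: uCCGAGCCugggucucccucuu
The seed was identical in miR-196a and miR-196b, which differ at 1 of 22 positions, and different in miR-615-3p. The miR-196 genes thus share a seed while lying at different distances from the peaks of their clusters.

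The genes that work with HOX proteins or set their chromatin were read in the same lists, to be set against 38.2% of all protein-coding starts with H3K4me3 and 23.6% with H3K27ac. The TALE cofactors, homeodomain proteins that bind DNA together with HOX, had H3K4me3 at 6 of 9 starts (66.7%) and H3K27ac at 3 (33.3%), with PKNOX2 at 8.67 and MEIS1 at 2.93 for H3K4me3. Both marks were found at MEIS1, PBX2 and PKNOX1, and neither at 3 genes, MEIS2 and MEIS3 among them. Genes of MLL complexes had H3K4me3 at 4 of 8 starts (50%), with KMT2A at 8.88. Polycomb repressive complex 2 had it at 6 of 11 (54.5%), including SUZ12 at 6.3 and EZH2 at 2.97, and complex 1 at 8 of 12 (66.7%), including RNF2 at 6.08. With 8 to 12 genes a list, nothing particular to a list can be read from these shares. Of 6 retinoic acid receptor genes, RARG had both marks, RXRB H3K4me3 and RARA H3K27ac. The ParaHox and HOX-like genes, the closest relatives outside the clusters, were marked at 2 of 9 starts, PDX1 by H3K4me3 at 2.93 and MNX1 by H3K27ac at 3.55. EVX1 and EVX2, which flank HOXA and HOXD, had neither mark within 1 kb.

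Motif matches before the starts were counted on both strands of the 300 bases upstream. TAAT, the core of homeodomain sites, occurred before 23 of 39 HOX starts (59%) and 52.3% of all protein-coding starts. TGATTNAT, the joint site of HOX and PBX proteins, occurred before HOXA2 and HOXB9, 2 of 39 (5.13%) against 2.65%. TATAAA occurred before 4 HOX starts (10.3%) against 12%. The shares were near the background for TAAT and TATAAA, and 2 matches allow no comparison for TGATTNAT. A match describes letters in this window and not a bound site.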

How the data were processed

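Peak lists of the H3K4me3 and H3K27ac libraries of untreated H2087 cells were analysed. Per the labels, the authors' pipeline named bcl2fastq 1.8.4, Bowtie 1.1.1, SAMtools 1.2, Picard 1.118, MACS2 2.1.0 and ChIPseeker 1.6.6 on hg19. Whether input served as the control in peak calling, and the treatment of duplicate reads, are not given in the sources used here. The last column of the deposited lists has no header and was read from its values as the −log10 q of each summit. This value grows with depth and copy number. Intervals listed once per summit were counted as 1 peak with the highest value. Positions are 1-based on hg19, with list starts taken as 0-based.

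Genes came from GENCODE 44 mapped to that build, with the outer 5′ end as the start. A start was marked when a peak lay within 1 kb, and clusters were extended by 50 kb. Shares have exact Clopper-Pearson 95% intervals (scipy 1.17.1), and interval functions were tested on simulated data. The HOX genes and the strongest and widest peaks were named by rule. Other genes of the regions, and genes of the comparison and marker lists, are named as examples. Those names do not follow the order of peak strength, and some genes with stronger peaks are not named. The members, lists and tests were chosen with earlier results of these data known. Alternatives were other peak filters, distances, flanks, overlaps and transcript starts. A few items are not reported here.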

Additional observations from a re-analysis of the deposited data

How the results depend on the processing

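Of 90 values under alternative settings for 22 results, 71 stayed within 1.5 times the reported value (for shared peaks, within its interval) and 19 did not. The starts were most sensitive to distance and to the transcript chosen. Within 3 kb, 15 HOX starts had H3K4me3, 15 H3K27ac and 9 both, against 43.3%, 29.9% and 24.3% of all genes. Within 500 bp, 6 had H3K4me3 (15.4%, 5.86 to 30.5), an interval that lies below the 30.8% of all genes. H3K27ac lay within 500 bp of 5 (12.8% against 17.8%), 3 of them without H3K4me3 (7.69% against 5.13%). With the start of any transcript, 14 had H3K4me3 (35.9%) and 6 both (15.4%), against 45.4% and 25.3% of all genes. With canonical starts, an alternative chosen after seeing the data, the counts were 10, 8 and 3. These are 25.6%, 20.5% and 7.69%, against 41.3%, 25.2% and 20.4% of all genes. H3K27ac alone was an added count, with 5 to 7 starts under the other alternatives except the median filter, which left 3 (7.69% against 4.9%). With 5 starts the interval includes the share of all genes. Keeping peaks at or above the median −log10 q of their own list left 4 H3K4me3 peaks in HOXA and 8 in HOXB, and 5 H3K27ac peaks in HOXC. It left 1.39% of HOXA, 1.32% of HOXB and 0.509% of HOXD under H3K4me3, and 1.49% of HOXC under H3K27ac. Joining peaks within 1 kb gave 4 H3K4me3 peaks in HOXA, and without flanks HOXB held 5 H3K27ac peaks. With the other mark allowed within 1 kb, 66.7% of the H3K4me3 and 61.3% of the H3K27ac peaks were shared. HOXD held 0 H3K27ac peaks with a flank of 100 kb as well. The other alternatives for that count only remove or join peaks, so their value of 0 was fixed in advance. These values of 0 are among the 71. No paired analysis was possible because there were no replicates to pair. Unknown depth limits every statement about a missing peak, and with 9 to 11 genes a cluster the intervals are too wide to order the clusters.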
